A study of Mus musculus with 4 samples.

Results

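Carbonic anhydrases and a bicarbonate transporter were followed in astrocyte-enriched cultures (AECs) under oxygen–glucose deprivation (OGD). The genes were the carbonic anhydrases *Car2*, *Car4*, *Car8*, *Car9*, *Car12* and *Car14* and the transporter gene *Slc4a7*, chosen by name, with every non-control probe that the array assigns to them. They were 7 of the 29676 gene names on the array and were read by 11 of its 39429 probes. The cultures were mixed glia from the cerebral cortex of newborn ICR mice, and PLX3397, which blocks the receptor that microglia need to survive, had been added to remove microglia. Untreated AECs (n = 2) were compared with AECs kept in medium without glucose under hypoxia for 15 h (n = 2), and both groups had received PLX3397. Each of the 4 RNA samples was labeled with Cy3 and hybridized to its own array. The methods state that wells came from independent cultures of different pups, whereas the labels do not say so for these samples, so the p-values measure only the spread between them. In whole cultures such as these, fewer cells of a type and less RNA per cell cannot be told apart.

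Carbonic anhydrases catalyze the conversion of carbon dioxide and water into bicarbonate and a proton, and back. CAR2 works in the cytosol, CAR4 is tethered to the outer surface by a lipid anchor, and CAR9, CAR12 and CAR14 cross the membrane once with the catalytic domain outside the cell. CAR8 has lost the catalytic activity and binds the inositol trisphosphate receptor. SLC4A7, also called NBCn1, carries sodium and bicarbonate into the cell together and thereby removes acid. Glycolysis without oxygen yields lactate and protons, and *Car9* and *Car12* are known as genes that respond to hypoxia-inducible factor-1 (HIF-1).

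The values are spot intensities. Over all non-control probes, the processed signal had its 75th percentile at 2135 and 2164 in untreated AECs but at 887 and 776 after OGD. In the main scale each log2 signal was set against the 75th percentile of its array, and changes are therefore relative ones. In an alternative scale it was set against 9 control probes for RNA of known sequence that is added to each sample (spike-in scaling). Between the groups these 9 probes themselves differed by −0.75 to 0.28 on the log2 scale. The directions of *Car2*, *Car14* and the brightest *Slc4a7* probe depend on the scale, and no value here shows which scale holds. The median log2 fold change over the 28258 probes tested was 0.18 in the main scale and −1.11 with spike-in scaling, and the changes below are read against these medians. All 12 astrocyte markers listed and 10 of 12 oligodendrocyte markers were well above background on all 4 arrays. So were 6 of 6 markers of meningeal fibroblasts, 5 of 6 of ependyma and choroid plexus, 6 of 8 of neurons and 6 of 8 of microglia. For NG2 glia it was 4 of 5, for endothelium 3 of 4 and for red blood cells 1 of 5. Of all 39429 probes 24588 passed this limit, so these counts do not show which cells the cultures held. With 2 arrays in a group precision is limited, and an exact permutation test of a single value cannot go below a two-sided p of 0.333.

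*Car9*, *Car12*, *Car14*, *Car2* and *Slc4a7* were higher after OGD in the main scale, and *Car4* and *Car8* did not pass the test. Each gene is represented here by its probe with the highest mean signal. In the limma fit across all probes, 5 of the 7 genes were higher at an adjusted p under 0.05, against 37.0% of the 21049 genes tested in the same way. None was lower (0 of 7, also at an unadjusted p under 0.05 and with the methods' t-test), against 27.8% of all genes. *Car9*, *Car12* and *Slc4a7* also exceeded a change of 2-fold, 3 of 7 against 12.7% of all genes, and none reached the 10-fold limit of the methods. With spike-in scaling only *Car9* and *Car12* were higher, 2 of 7 against 3.84% of all genes. On that scale *Car2*, *Car4* and *Car14* were lower, against 83.3% of all genes, and *Slc4a7* did not pass the test. The fit passed the limit for *Car8* as well, but its probe was not well above background on either OGD array, so this is not read as a decrease. Of the 11 probes, 9 passed the filter on low signal, 8 of them well above background on all 4 arrays. The *Car8* probe tested passed only through the untreated arrays.

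**Figure D1:**
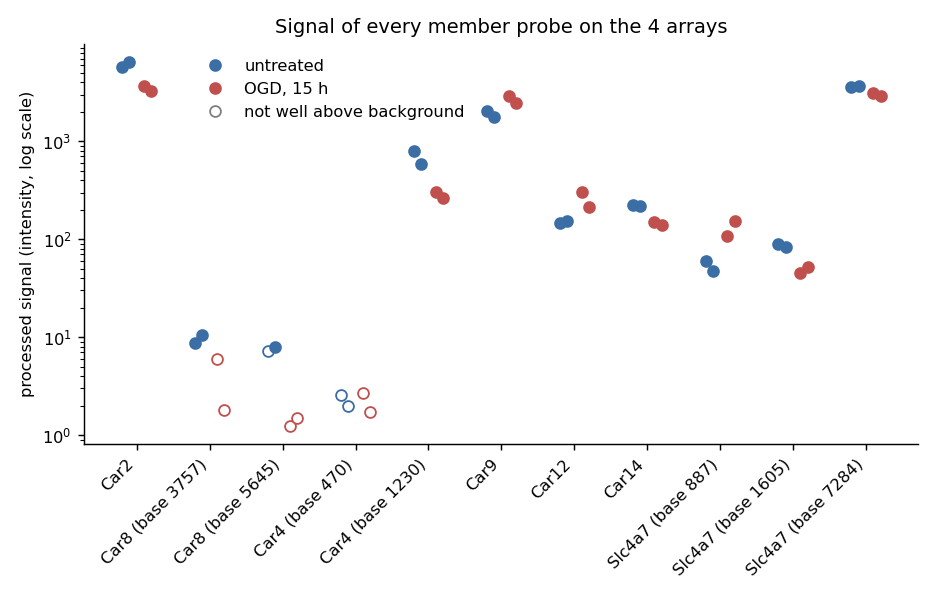
Processed signal (intensity, log scale) of the 11 probes on the 2 untreated arrays (blue) and the 2 OGD arrays (red), with open points where a spot was not well above background. Numbers in brackets give the first base of the probe in its transcript. The signal of *Car9*, *Car12* and the *Slc4a7* probe at base 887 was higher on both OGD arrays than on both untreated arrays.

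Before any scaling between arrays, few probes on the array were brighter after OGD. Both OGD arrays lay above both untreated arrays for 5.46% of 28163 probes with a value on every array, and both lay below for 89.7%. Among the 9 member probes tested, the probes of *Car9* and *Car12* and one of the 3 *Slc4a7* probes belonged to the first group, and the other 6 belonged to the second. The plot of the signal on the 4 arrays shows this division.

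*Car12*, which encodes a transmembrane carbonic anhydrase, had the largest change among the brightest probes. Its probe (A_55_P2019312, NM_178396, chr9:66614542-66614601 of mm9) read 145 and 155 in untreated AECs and 301 and 213 after OGD, as processed signal. The OGD arrays were both higher than the untreated arrays, and they differed from each other more than the untreated arrays did. On the normalized log2 scale untreated AECs were at −3.84 ± 0.050 (SD, n = 2) and OGD AECs at −1.71 ± 0.22 (SD, n = 2). *Car12* thus rose by a log2 fold change of 2.13 (SE 0.14), a 4.37-fold difference (limma, adjusted p = 0.00134), and 2.81% of the probes tested had a higher one. With spike-in scaling it was 0.84 (SE 0.16, limma adjusted p = 0.00543).

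*Car9* encodes the carbonic anhydrase best known as a marker of hypoxic cells. Its probe (A_55_P2092750, NM_139305, chr4:43526518-43526577 of mm9) gave 2031 and 1767 in untreated AECs and 2879 and 2444 after OGD. The probe was well above background on every array, and the groups did not overlap. Set against the 75th percentile, the log2 values were −0.18 ± 0.16 (SD, n = 2) in untreated AECs and 1.68 ± 0.031 (SD, n = 2) after OGD. For *Car9* the log2 fold change was 1.86 (SE 0.11), a 3.63-fold difference (limma, adjusted p = 0.00117), and 3.72% of the probes tested had a higher one. With spike-in scaling it was 0.57 (SE 0.11), a 1.49-fold difference (limma, adjusted p = 0.00659).

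*Car14*, the third transmembrane enzyme, changed less. Its probe (A_51_P175424, NM_011797, chr3:95701859-95701918 of mm9, minus strand) gave 222 and 219 in untreated AECs and 150 and 141 after OGD, so that the processed signal was lower on both OGD arrays. Relative to the 75th percentile the direction was the opposite, from −3.29 ± 0.028 (SD, n = 2) to −2.51 ± 0.074 (SD, n = 2) on the log2 scale. *Car14* had a log2 fold change of 0.77 (SE 0.084, limma adjusted p = 0.00347), or 0.60 above the median of all probes, and with spike-in scaling it was −0.51 (limma, adjusted p = 0.00675). Of the probes tested, 22.4% had a higher change than *Car14*.

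**Figure D2:**
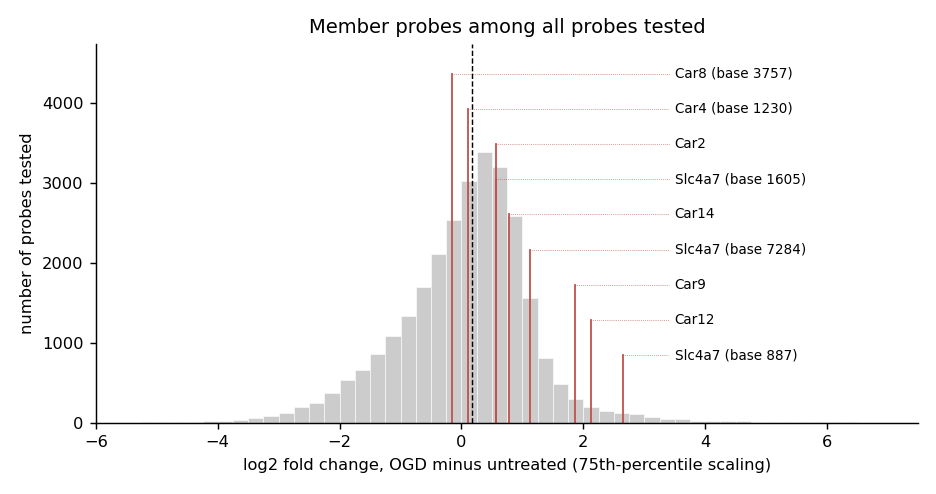
Number of the 28258 probes tested by their log2 fold change, OGD minus untreated, with 75th-percentile scaling (grey bars, bins of 0.25), the median of 0.18 (dashed line) and the 9 member probes tested (red lines). *Car9*, *Car12* and the *Slc4a7* probe at base 887 lie in the right tail, and the probes of *Car4* and *Car8* lie near the median.

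The start regions of these genes are shown because HIF-1 binds a core that reads ACGTG or GCGTG. RefSeq windows of 300 bases on GRCm38.p6, from 250 bases before the start of the transcript to 50 after it, were given for 5 of the 7 genes (*Car4*, *Car9*, *Car12*, *Car14* and *Slc4a7*) and were searched on both strands. ACGTG was found in the windows of *Car4*, *Car9* and *Car14*, 3 of 5, and in 19.6% of all 32851 windows in the table. GCGTG was found in none of the 5 windows (0) and in 32.4% of all windows. Either one was thus in 3 of 5 windows and in 43.8% of all windows, and nothing particular to these genes is read from so few. Neither was found in the windows of *Car12* and *Slc4a7*. The match in *Car9* began 18 bases before the start and that in *Car14* 7 bases before it, whereas that in *Car4* began at base 3 of the transcript. Below are the 250 bases before the start of *Car9* (chr4:43506776-43507025, plus strand), which holds a match, and of *Car12* (chr9:66713436-66713685, plus strand), which rose as well and holds none, followed by the stretch around the start of *Car14* (minus strand) and *Car4* (plus strand). Each reads 5′ to 3′ on the strand of the gene, and capitals mark ACGTG as it appears there when it lies on the other strand.
Car9: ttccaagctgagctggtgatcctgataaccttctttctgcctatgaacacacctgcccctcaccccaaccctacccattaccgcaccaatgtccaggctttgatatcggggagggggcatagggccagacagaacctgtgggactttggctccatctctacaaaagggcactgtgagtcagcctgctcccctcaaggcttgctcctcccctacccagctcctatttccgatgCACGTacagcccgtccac
Car12: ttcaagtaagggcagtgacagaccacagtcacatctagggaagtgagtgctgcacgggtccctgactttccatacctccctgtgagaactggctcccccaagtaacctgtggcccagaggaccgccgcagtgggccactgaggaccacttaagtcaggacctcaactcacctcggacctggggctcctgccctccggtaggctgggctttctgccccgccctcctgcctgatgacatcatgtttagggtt
Car14: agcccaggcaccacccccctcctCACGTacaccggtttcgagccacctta
Car4: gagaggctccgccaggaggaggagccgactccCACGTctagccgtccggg
The matches are a description of letters and say nothing of binding in these cultures.

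*Car4*, which encodes the lipid-anchored enzyme, did not differ beyond the spread between arrays in the main scale. Its brightest probe (A_55_P2114680, NM_007607, chr11:84779487-84779546 of mm9, base 1230 of the transcript) gave 797 and 581 in untreated AECs and 304 and 263 after OGD. The processed signal was lower on both OGD arrays, but the normalized values overlapped, at −1.66 ± 0.34 (SD, n = 2) and −1.56 ± 0.012 (SD, n = 2). *Car4* had a log2 fold change of 0.10 with a 95% interval from −0.42 to 0.63 (limma, adjusted p = 0.649). Without untreated replicate 2 it was −0.13. With spike-in scaling it was −1.18 (SE 0.16, limma adjusted p = 0.00171), close to the median of all probes on that scale. A second *Car4* probe (A_55_P2087182, chr11:84777667-84777726 of mm9) begins at base 470 of the same transcript and was not well above background on any of the 4 arrays, with a processed signal between 1.71 and 2.72. Its sequence is shown because it reads the same transcript nearer its start.
Car4 probe at base 470: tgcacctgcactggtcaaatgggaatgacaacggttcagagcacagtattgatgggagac

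*Car2*, which encodes the cytosolic enzyme of glia and red blood cells, was slightly higher relative to the 75th percentile. Its single probe (A_51_P455647, NM_009801, chr3:14900206-14900265 of mm9) gave 5686 and 6425 in untreated AECs and 3635 and 3276 after OGD. The processed signal was lower on both OGD arrays, by less than that of most probes. The normalized log2 signal was 1.49 ± 0.11 (SD, n = 2) and 2.06 ± 0.030 (SD, n = 2), with no overlap. The log2 fold change was 0.56 (SE 0.094), a 1.48-fold difference (limma, adjusted p = 0.00995), and 31.7% of the probes tested had a higher one. Without untreated replicate 1 it was 0.49 and no longer passed the test (limma, adjusted p = 0.0761), and with spike-in scaling it turned to −0.72 (limma, adjusted p = 0.00398). *Car2* is also expressed by oligodendrocytes. Of 12 oligodendrocyte markers 11 were tested, 4 higher and 3 lower in the main scale, and the median was 0.30 beside 0.16 for all genes, while 0 were higher and 9 lower with spike-in scaling. Summed over the list, the signal was 82872 and 78597 in untreated AECs and 38856 and 35357 with OGD, and their part in the *Car2* result was not tested.

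*Car8*, which encodes the protein without catalytic activity, was read near background. The brighter of its probes (A_51_P392005, NM_007592, chr4:8070545-8070604 of mm9, minus strand) gave 8.77 and 10.5 on the untreated arrays, where it was well above background, and 6.02 and 1.82 after OGD, where it was not. The other probe (A_66_P126640, chr4:8068657-8068716) gave 7.30 and 8.0, well above background on the second array only, and 1.25 and 1.5 after OGD. The OGD arrays were thus below the untreated arrays with both probes. Since the dimmest probes still marked as well above background on the OGD arrays lay higher relative to the 75th percentile than *Car8* did in untreated AECs, no fold can be given. The fitted log2 fold change of the brighter probe was −0.16 (SE 0.56, limma adjusted p = 0.819). It turned with single arrays, at −0.93 without OGD replicate 1 (limma, adjusted p = 0.0153) and 0.61 without OGD replicate 2 (limma, adjusted p = 0.0377), and it was 1.14 after normexp background correction (limma, adjusted p = 3.07e-05). All of these values rest on OGD spots that were not well above background.

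**Figure D3:**
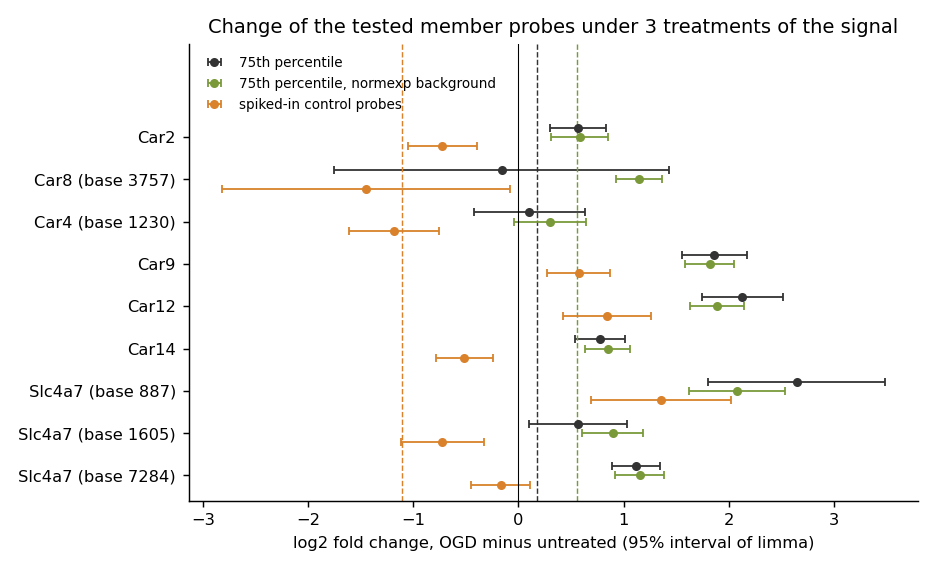
Log2 fold change (OGD minus untreated, points) with the 95% interval of limma (bars) for the 9 member probes tested, with 75th-percentile scaling of the processed signal (black), the same after normexp background correction (green) and spike-in scaling (orange), and dashed lines at the median of all probes in each. *Car9*, *Car12* and the *Slc4a7* probe at base 887 are above 0 in all 3, whereas *Car2*, *Car4*, *Car14* and the other 2 *Slc4a7* probes change sign with spike-in scaling.

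*Slc4a7* was read by 3 probes, which did not change alike. The brightest (A_55_P2026818, NM_001033270, chr14:15632353-15632412 of mm9) begins at base 7284 of the transcript and gave 3548 and 3658 in untreated AECs and 3136 and 2913 after OGD. Its normalized log2 signal went from 0.75 ± 0.017 (SD, n = 2) to 1.86 ± 0.061 (SD, n = 2). The log2 fold change was 1.12 (SE 0.081), a 2.17-fold difference (limma, adjusted p = 0.00157), and 11.3% of the probes tested had a higher one. With spike-in scaling it was −0.17 with a 95% interval from −0.45 to 0.11 (limma, adjusted p = 0.194).

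The *Slc4a7* probe at base 887 of the same transcript (A_52_P108502, chr14:15572341-15572400 of mm9) had the largest change of all member probes. It read 59.6 and 47.6 in untreated AECs and 107 and 155 after OGD, higher on both OGD arrays. The log2 fold change was 2.64 (SE 0.30), a 6.25-fold difference (limma, adjusted p = 0.00378), and with spike-in scaling it was 1.36 (SE 0.26, limma adjusted p = 0.00528). The third probe (A_55_P1977920, chr14:15620046-15620104 of mm9) is assigned to another transcript of the gene, ENSMUST00000225613, and lies between the other two on the chromosome. It gave 88.5 and 82.9 in untreated AECs and 45.6 and 52.6 after OGD, lower on both OGD arrays. Its log2 fold change was 0.57 (SE 0.17, limma adjusted p = 0.0454), and with spike-in scaling it was −0.72. It did not pass the test with the methods' t-test (adjusted p = 0.161), without untreated replicate 1 (limma, adjusted p = 0.131) or without untreated replicate 2 (limma, adjusted p = 0.187). The same held with the 75th percentile over a common set of bright probes (limma, adjusted p = 0.108) and with no filter on dim probes (limma, adjusted p = 0.0695). It was 0.37 without OGD replicate 2 (limma, adjusted p = 0.0496) and 0.90 after normexp (limma, adjusted p = 0.000283). The sequence of the probe at base 887 is shown because it carries the largest change.
Slc4a7 probe at base 887: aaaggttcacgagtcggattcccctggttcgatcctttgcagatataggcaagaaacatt

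The difference between probes of a gene was tested within each array, where the scaling between arrays cancels but the background correction does not. For every gene with several probes well above background on all 4 arrays, the log2 signal of its brightest probe was subtracted from that of each other probe, and the 6131 differences from 4856 genes were compared between groups with limma. The *Slc4a7* probe at base 887 rose relative to the brightest probe by 1.52 on the log2 scale (SE 0.26, limma adjusted p = 0.00741). After normexp background correction this difference was 0.92 (SE 0.23, limma adjusted p = 0.0155), and with single arrays left out it was 1.2 to 1.84 and passed the test each time. The third probe fell relative to the brightest by 0.55 (SE 0.15, limma adjusted p = 0.0326), but the difference did not pass the test after normexp, at −0.26 (limma, adjusted p = 0.184), without untreated replicate 1 (limma, adjusted p = 0.194) or without untreated replicate 2 (limma, adjusted p = 0.112). Such differences were common, with 48.5% of all 6131 pairs passing the same limit, and 14.5% of the pairs had a larger absolute difference than the probe at base 887. Which transcripts of *Slc4a7* each probe reads was not tested.

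The genes with the pattern most like each of the 3 genes with the largest change were taken from 24493 probes well above background on all 4 arrays. The measure was the root mean square difference over the 4 arrays between log2 values that had been centered on the untreated mean of each probe. For *Car12* the nearest were a transcript named only as TC1685411 (0.035) and *Jam2* (0.035), which encodes a junctional adhesion molecule. For *Car9* they were *Ppp1r3e* (0.025), a regulatory subunit of protein phosphatase 1 that acts on glycogen, and *Tmem212* (0.030), an ependymal marker. For the brightest *Slc4a7* probe they were *Cmtm5* (0.0082) and the unnamed probe A_55_P2074055 (0.0084). A difference under 0.1 was shared by 28 other probes for *Car12*, 78 for *Car9* and 972 for *Slc4a7*.

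Other genes that move or sense protons and bicarbonate were counted from lists made for this comparison. Of the 76 other genes listed 68 were tested, and 36 of them were higher and 13 lower in the main scale, against 37.0% higher and 27.8% lower among all genes. Their median was 0.45 on the log2 scale, beside 0.16 for all genes. Other carbonic anhydrases, bicarbonate transporters and sodium/proton exchangers, the groups nearest to the members, had 9 of 30 genes higher and 9 lower, with a median of 0.087. Among V-ATPase subunits 19 of 24 were higher, and among monocarboxylate transporters and their chaperones 5 of 6. With spike-in scaling 7 of the 68 were higher and 50 lower, and the median was −0.84 against −1.13 over all genes. Of the genes called lower, 1 of 13 in the main scale (*Slc9a5*) and 5 of 50 with spike-in scaling had no OGD array well above background, as with *Car8*, and no decrease is read from these.

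Among 10 other carbonic anhydrases, 5 were higher, 3 lower and 2 not called in the main scale, with a median log2 fold change of 0.45. *Car6*, which encodes the secreted enzyme of saliva, had a signal of 40.2 and 37.7 in untreated AECs and 165 and 71.1 after OGD. Its log2 fold change was 2.85 (SE 0.38, limma adjusted p = 0.00555), and with spike-in scaling it was 1.56, the only one of the 10 that was higher on that scale, where 7 were lower. The OGD arrays of *Car6* differed from each other more than 2-fold, but both were above the untreated arrays. The cytosolic enzymes *Car3* and *Car7* were at log2 fold changes of 1.24 and 1.09, which became −0.045 and −0.20 with spike-in scaling and did not pass the test there. The mitochondrial enzymes moved apart, with *Car5b* at 0.49 and *Car5a* at −1.67, and at −0.79 and −2.96 with spike-in scaling, although *Car5a* was well above background on only 1 of the OGD arrays. *Car10* and *Car11*, whose products lack catalytic activity, were at −1.50 and 0.46, and at −2.79 and −0.82 with spike-in scaling. *Car15*, which encodes a membrane-anchored enzyme, gave 387 and 362 in untreated AECs and 39.1 and 41.8 after OGD, or −1.84 on the log2 scale (SE 0.13, limma adjusted p = 0.00161) and the largest decrease among the carbonic anhydrases tested, with −3.12 under spike-in scaling. *Car1* (0.44) and *Car13* (0.26) did not pass the test in the main scale, and with spike-in scaling they were lower, at −0.85 and −1.02.

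Of 14 bicarbonate transporters besides *Slc4a7* 12 were tested, and 1 was higher and 3 lower, with a median of −0.10, against 0 higher and 11 lower with spike-in scaling. *Slc4a8*, which encodes a sodium-driven chloride/bicarbonate exchanger, gave 667 and 740 in untreated AECs and 52.9 and 40.7 after OGD. Its log2 fold change was −2.55 (SE 0.11, limma adjusted p = 0.000812), and with spike-in scaling it was −3.84. Of 12 genes for sodium/proton exchangers and their regulators 8 were tested, 3 higher and 3 lower, with *Slc9a5* among the latter and a median of 0.0081, against 0 higher and 7 lower with spike-in scaling.

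All 6 genes for monocarboxylate transporters and their chaperones were tested, and 5 were higher and 0 lower in the main scale (all 6 values were above 0), against 2 higher and 3 lower with spike-in scaling. *Slc16a3*, which encodes the exporter of lactate with a proton, had the largest change of the group, from 133 and 146 to 4971 and 3652, or 6.30 on the log2 scale (SE 0.12, limma adjusted p = 0.000729). Of 25 subunits of the V-ATPase, the pump that acidifies lysosomes and other compartments, 24 were tested, 19 higher and 2 lower, with a median of 0.77. With spike-in scaling 2 of them were higher and 16 lower. *Atp6v0d2* had no untreated array well above background and was at least 7.65-fold higher after OGD in the main scale. This bound sets the OGD mean against the lowest signal marked as well above background on each untreated array. It holds for the main scale only, where the fitted log2 fold change was 4.16. With spike-in scaling the fitted value was 2.87, and no bound was computed there. Of 9 proton sensors and channels 8 were tested, 3 higher and 2 lower, and 2 higher and 6 lower with spike-in scaling. *Gpr4*, a receptor that responds to protons outside the cell, gave 87.6 and 91.9 in untreated AECs and 606 and 682 after OGD, which is a difference of 4.21 on the log2 scale (SE 0.15, limma adjusted p = 0.000752) and of 2.93 with spike-in scaling.

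**Figure D4:**
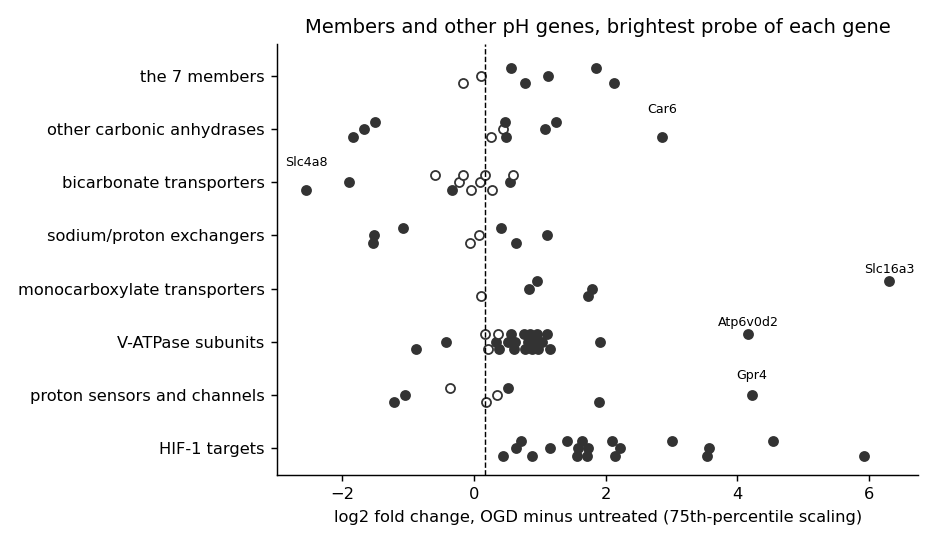
Log2 fold change (OGD minus untreated, 75th-percentile scaling) of the brightest probe of each gene tested, for the 7 members, 6 groups of other pH genes and the HIF-1 targets, with filled points at an adjusted p under 0.05 in limma and a dashed line at the median of all genes (0.16). The genes named in the plot are those among the other pH genes beyond a 4-fold change, with *Slc16a3* farthest to the right at 6.30.

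*Car9* and *Car12* lay within the range of other HIF-1 targets, and so did *Car2* (0.56), *Car14* (0.77) and the brightest *Slc4a7* probe (1.12) in the main scale. Of all probes tested, 31.7% had a higher change than *Car2*, so this wide range does not set *Car9* and *Car12* apart. Of 20 targets listed, from which both were left out, 19 were tested and all 19 were higher in the main scale, against 37.0% of all genes. The list was made with earlier results of these data known and holds genes that the paper reported as higher on these arrays. The count is therefore no independent support. The log2 fold changes of the 19 ranged from 0.44 to 5.92 with a median of 1.72, beside 1.86 for *Car9* and 2.13 for *Car12*. With spike-in scaling 11 of the 19 were higher and 4 lower, against 3.84% higher and 83.3% lower among all genes. The median was then 0.43, beside 0.57 for *Car9* and 0.84 for *Car12*.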

How the data were processed

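The authors deposited spot intensity as the processed signal of Agilent Feature Extraction (11.5.1.1 per the labels), corrected for background and spatial trend on each array separately and not scaled across arrays. The deposited flags mark spots as well above background, saturated or outlying. A series-wide table repeats this signal (largest difference 0).

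After control and outlier spots were removed, the signal was put on the log2 scale, averaged over spots of a probe, and set against the 75th percentile of its array. A probe entered the test if either group had it well above background on both arrays. limma 3.58.1 (lmFit and eBayes, R 4.3.3) was used, with Benjamini–Hochberg adjustment over all 28258 probes. Of these, 95 lacked a value on at least 1 array after outlier spots were removed, none of them a member. The brightest probe over the 4 arrays stood for a gene, but where a gene had a probe lacking a value on an array, that probe was taken instead. This concerned no member and, among the listed genes, only *Col1a1*. The files give probe positions on mm9, and RefSeq windows are on GRCm38.p6, so positions were not compared between them. Python 3.11.15 was used for tables and plots. The limma fit, but not the scaling, filters or choice of probe, was tested on simulated data in which far fewer probes changed than were called here.

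The members and gene lists were chosen with earlier results of these data known. The genes named were all members, every other carbonic anhydrase tested, the other pH genes past 4-fold at an adjusted p under 0.05, and the 2 genes nearest in pattern to each of 3 members. *Slc9a5*, *Col1a1* and *Flt1* were named outside this rule, chosen after their values had been seen. The comparison of probes within a gene and its alternatives were added after the values had been seen. The alternatives are those named in the closing section. Probe sequences other than the 2 printed were not reported here.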

Additional observations from a re-analysis of the deposited data

How the results depend on the processing

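*Car9* and *Car12* kept their direction and an adjusted p under 0.05 in all settings tried. With spike-in scaling the log2 fold change was −0.72 for *Car2*, −1.18 for *Car4*, −1.45 for *Car8* (past the limit, but with no OGD spot well above background, so no fold is read from it), −0.51 for *Car14* and −0.17 for the brightest *Slc4a7* probe. That of *Car4* was −0.047 with the 75th percentile taken only over probes that every array measured well above background, and that of *Car8* was 1.14 with normexp (offset 50; limma, adjusted p = 3.07e-05), a call in the opposite direction on the same dim spots. With single arrays left out it ranged from 0.49 to 0.64 for *Car2*, from −0.13 to 0.34 for *Car4* and from −0.93 to 0.61 for *Car8*, and it kept its side of the limit for *Car9*, *Car12*, *Car14* and *Slc4a7*. The number of member genes called higher was then 4 (without untreated replicate 1, which lost *Car2*) to 6 (without OGD replicate 2, which added *Car8*), and called lower 0 to 1 (*Car8* without OGD replicate 1). With spike-in scaling 2 members, 7 other pH genes and 1262 of all probes were higher, and 4 (*Car8* among them), 50 and 23155 were lower. With normexp 6 members (*Car8* added), 54 other pH genes and 17757 of all probes were higher. A 2-fold limit left 3 members, 14 other pH genes and 3939 of all probes higher and 4170 of all probes lower, and a 10-fold limit left 0 members, 3 other pH genes and 229 of all probes higher and 0 other pH genes and 148 of all probes lower. With 1 array left out, 22 to 37 other pH genes and 5872 to 11023 of all probes were higher, and 10 to 13 and 4821 to 8138 were lower. The lowest of these came without an untreated array, with 6729 of all probes higher without replicate 1 and 5872 without replicate 2, and such fits take the spread of the single array left in a group from the other group. The cause of these shifts was not tested, except that a higher fold limit passes fewer probes by construction. The other settings were the methods' t-test, an intensity trend with a robust prior, quantile and median scaling, other filters on dim probes, outlier spots kept, the table of the whole series, the mean over the probes of a gene and unadjusted p, and none of them moved the brightest probe of a member across the limit or a count above by over 1.5 times. Quantile scaling moved the uncalled values of *Car8* to −0.59 and of *Car4* to 0.17, and the filter that asks for all arrays leaves *Car8* untested. The replicate numbers are shared by the groups only as labels, and deviations of samples with the same number correlated across probes at r = −0.057. With the replicate number as a block, 5 members were higher and 0 lower, 35 other pH genes were higher and 12 lower, no brightest member probe crossed the limit, and the third *Slc4a7* probe did (limma, adjusted p = 0.0740). Depth has no meaning for arrays, and signal over background limits *Car8* and the *Car4* probe at base 470.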

Other observations

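Markers of other cell types that the cultures could hold were read on the same arrays, with no member result resting on them. Of all genes, 37.0% were higher and 27.8% lower in the main scale, and 3.84% were higher and 83.3% lower with spike-in scaling. Of 12 astrocyte markers, 6 were higher and 2 lower in the main scale, and the median log2 fold change was 0.67, with 0 higher and 9 lower with spike-in scaling. All 5 markers of NG2 glia were tested, 2 higher and 1 lower, with a median of −0.15, against 0 higher and 5 lower with spike-in scaling. All 8 microglia markers were tested, 3 higher and 2 lower, with log2 fold changes from −0.93 to 3.14, and 6 of them were well above background on all 4 arrays. With spike-in scaling 1 of the microglia markers was higher and 5 were lower. Of 8 neuron markers 7 were tested, 3 higher and 2 lower, but with spike-in scaling 0 were higher and 6 lower. All 6 markers of meningeal fibroblasts were tested, 0 higher and 2 lower in limma, with a median of −0.41 and a lowest value of −2.42. All 6 were lower with spike-in scaling, with *Col1a1* fitted without OGD replicate 1, where its spot was left out as an outlier. Of 6 ependymal and choroid plexus markers 5 were tested, 2 higher and 2 lower, from −1.62 to 1.88, and with spike-in scaling 1 was higher and 3 lower. Of 4 endothelial markers 3 were tested and none was called in the main scale, whereas all 3 were lower with spike-in scaling. This rests on 1 probe for each gene. *Flt1* was at 0.60 by the probe used (limma, adjusted p = 0.0546), whereas the paper lists *Flt1* among the genes past its 10-fold limit on these arrays. It is therefore not read as unchanged. Of the markers called lower in these lists, 1 in the main scale and 3 with spike-in scaling had no OGD array well above background, so no decrease is read from them.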
